A study of Homo sapiens with 4 samples.

Results

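The genes described here encode the machinery that prepares replication origins and copies DNA at the fork. They are 55 gene symbols listed by name for their function, with earlier results of these data known, and all 55 have a row among the 19381 genes of the count table. RNA was sequenced in SK-LMS-1 cells, a human line that the labels assign to uterine leiomyosarcoma, a malignant tumour of smooth muscle type. The 2 control libraries came from untreated cells, with no vehicle named, and the other 2 from cells given 50 µM 2-D08 for 48 h. 2-D08 is a flavone known to inhibit SUMOylation, the attachment of the small protein SUMO to other proteins. All cells were grown in the same serum-containing medium. Separate cultures are not stated, so p-values describe the spread among these libraries, part or all of which may be technical.

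Replication starts in separate steps, so that each origin fires once in a cell cycle. In G1 the origin recognition complex (ORC), CDC6 and CDT1 load the MCM helicase onto DNA as an inactive ring, a step called licensing, which geminin (GMNN) blocks by binding CDT1. In S phase the kinase CDC7 with DBF4, together with cyclin-dependent kinases, converts the ring into an active helicase with CDC45 and the GINS complex. Polymerase alpha-primase then starts each new strand, and polymerases epsilon and delta, held by the PCNA clamp, extend the leading and lagging strands. Many of these genes are transcribed around the G1/S boundary under E2F factors. In bulk RNA, a larger share of cells in S phase and more RNA per cell cannot be told apart.

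Total counts ran from 14796702 to 31300635 per library. Of nonzero counts, 89% were even in untreated replicate 1 and 88.8% in 2-D08 replicate 2, which have the larger totals, against 48.4% and 47.9% in the others, so their depth may be overstated. Levels are given as CPM, read counts scaled to library size with TMM factors. Smooth muscle markers were unevenly present: over the 4 libraries CALD1 was at 445 to 679.9 CPM, SMTN at 110.1 to 193 CPM and TAGLN at 14.6 to 27.1 CPM. ACTA2, which did not pass, was at 3.06 to 6.64 CPM and CNN1 at 2.06 to 4.42 CPM. DES had 0 counts in every library, and MYOCD and MYH11 stayed under 1 CPM. The summed level of all 10 was 802 and 827 CPM in untreated and 659.7 and 699 CPM in treated libraries. Of the 8 that could be tested, 3 fell (TAGLN, CALD1 and CNN1) and 1 rose (SMTN). For all marker counts here, the shares over all genes tested were 17.1% higher and 16.9% lower (adjusted p under 0.05). Of the immune markers, CD68 was at 60.4 and 65.3 CPM in untreated and 93.4 and 92.6 CPM in treated libraries and LCP1 at 1.21 and 0.787 CPM in untreated and 4.58 and 5.77 CPM in treated libraries, and both rose, while CD14, PTPRC, CD3E and LYZ were each under 1 CPM in every library. Endothelial markers summed to 1.28 to 2.07 CPM, with 1 of 2 tested higher (PECAM1, with 14 and 2 counts in untreated and 18 and 40 in treated libraries). The other, CDH5, did not pass, at 0.74 and 1.45 CPM in untreated and 0.33 and 0.58 CPM in treated libraries (log2 fold change -1.1). Epithelial markers summed to 339 and 299 CPM against 273 and 226 CPM, most of it KRT18, which did not pass. Of 5 epithelial markers tested 0 rose and 3 fell (KRT7, KRT19 and KRT8), with KRT7 going from 77.4 and 66.5 CPM to 36.7 and 23.2 CPM. The part of these marker differences in the results was not tested.

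The promoters of these genes are shown first, as a description of the set. RefSeq promoter sequence (GRCh38.p14, 250 bases before to 50 bases after the annotated start) was at hand for 48 of the 55 genes. An E2F site was searched as TTTCCCGC, TTTGGCGC, TTTGCCGC or TTTCGCGC on either strand, where matches on opposite strands can overlap. It was found in 19 of the 48 promoters (39.6%), against 5.48% of 10593 promoters of tested genes and 3.33% of 27305 promoters in all. The lines below give the 200 bases before the start of MCM6, which holds the most matches (4) yet did not pass the test, and of PCNA, which rose. Matched bases are in capitals.
MCM6 (chr2:135876444-135876643, - strand): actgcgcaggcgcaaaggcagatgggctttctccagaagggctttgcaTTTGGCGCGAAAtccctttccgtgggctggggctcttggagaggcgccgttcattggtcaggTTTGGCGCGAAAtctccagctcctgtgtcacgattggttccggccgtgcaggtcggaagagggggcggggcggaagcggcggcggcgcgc
PCNA (chr20:5126623-5126822, - strand): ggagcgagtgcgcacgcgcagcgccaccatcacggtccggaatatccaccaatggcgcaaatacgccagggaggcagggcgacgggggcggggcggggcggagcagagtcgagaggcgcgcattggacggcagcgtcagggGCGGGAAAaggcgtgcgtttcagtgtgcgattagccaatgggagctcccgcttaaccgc
In MCM6 the matches form 2 overlapping pairs on opposite strands. The next lines give the 30 bases around the first match of 5 more genes that rose: the G1 licensing factors CDC6 and CDT1, the checkpoint adaptor CLSPN, the helicase subunit MCM7 and the clamp loader subunit RFC3.
CDC6 (chr17:40287875-40287904, + strand): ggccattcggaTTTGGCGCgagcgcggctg
CDT1 (chr16:88803743-88803772, + strand): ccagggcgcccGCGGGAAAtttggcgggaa
CLSPN (chr1:35769965-35769994, - strand): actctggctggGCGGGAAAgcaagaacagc
MCM7 (chr7:100101566-100101595, - strand): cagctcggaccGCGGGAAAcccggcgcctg
RFC3 (chr13:33818083-33818112, + strand): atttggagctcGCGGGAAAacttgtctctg
Counting the annotated start as 0, the match began at position 7 in CDC6, -35 in CDT1, -5 in CLSPN and -55 in RFC3, and matches began at -187 and -9 in MCM7. By role, all 4 MCM2-7 promoters at hand held a match, 2 of 3 for licensing factors, 3 of 7 for helicase activation and 0 of 4 for chromatin assembly. A match was found in 14 of 36 promoters of members that rose (38.9%) and in 5 of 12 of members that did not pass (41.7%). Of 1795 promoters of all genes called higher, 7.97% held a match. Whether a match bears on the change of a gene was not tested. The cell cycle homology region, TTTGAA on either strand, was found in 2 of the 48 promoters (4.17%), against 10% of promoters of tested genes. These are letter matches and not mapped binding sites. Strings with other last bases were not searched, such as TTTGGCGG. Counting both strands, that string occurs in the promoters of MCM10, CDC45, CHAF1A and RFC1, which had no match. A promoter without a match, and a role with few of them, may thus still hold an E2F-type site.

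Expression of most of the set was higher after 2-D08. Of the 55 members, all of which passed the filter on low counts, 42 rose and 0 fell (edgeR's quasi-likelihood test, adjusted p under 0.05). Over the 12906 genes tested, 33.9% were called, 17.1% higher and 16.9% lower. At least 2-fold rises were called in 11 members, against 3.26% of all genes. The median log2 fold change was 0.65 over the members and -0.0033 over all genes tested. In 47 members both treated libraries lay above both untreated ones, as in 33.8% of all genes, and in 0 members both lay below, against 33.7% of all genes. The 55 genes together took 3153 and 3174 CPM in untreated libraries, compared with 4866 and 4808 CPM after treatment. Beside them, 12 of 20 G2/M genes rose and 0 fell, with a median of 0.39, and their summed level went from 4438 and 4732 CPM to 5387 and 6344 CPM. Whether the share of cells in each phase differed was not tested.

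**Figure D1:**
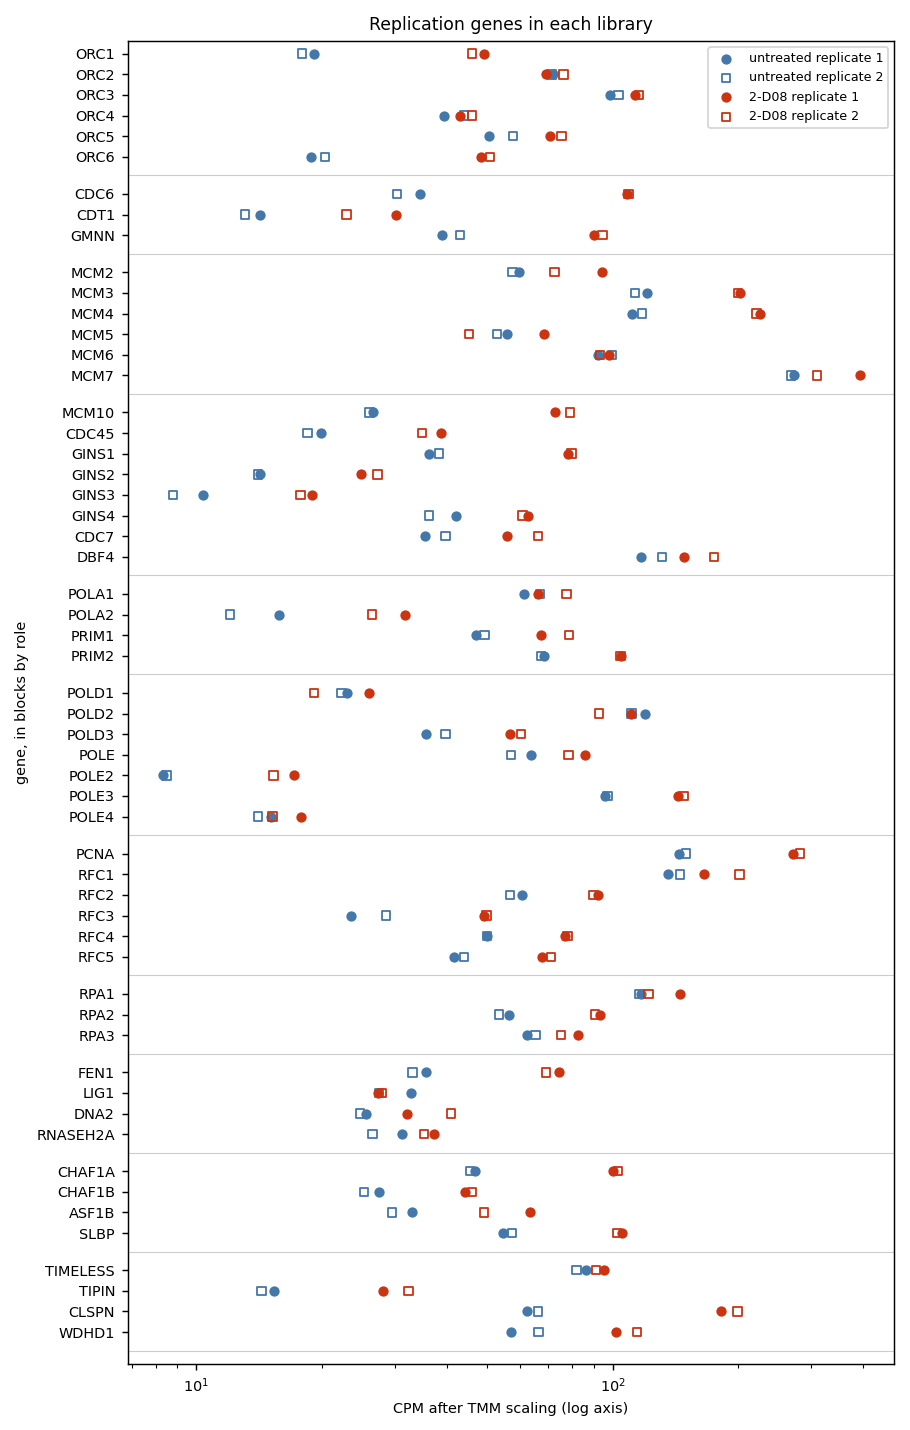
Level of each of the 55 genes in each library, in CPM after TMM scaling on a log axis, in blocks by role from origin recognition at the top to fork protection at the bottom; blue marks are untreated and red marks 2-D08 libraries, filled circles replicate 1 and open squares replicate 2. In 47 genes both red marks lie to the right of both blue ones.

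**Figure D2:**
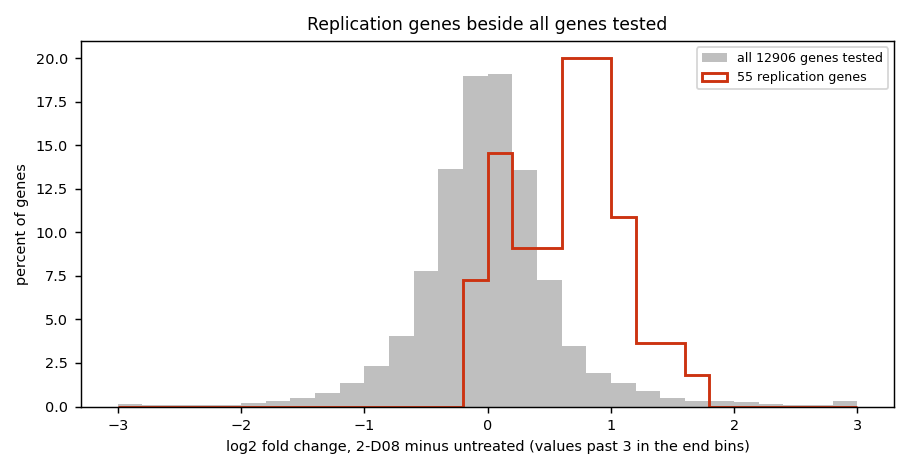
Share of genes (percent) by log2 fold change of 2-D08 against untreated, for all 12906 genes tested (grey bars) and the 55 replication genes (red line), with values past 3 put in the end bins. The replication genes have a median of 0.65 and run from -0.18 to 1.74.

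In the origin recognition complex, which marks origins, 3 of 6 subunit genes rose (median log2 fold change 0.31). ORC1, the ATPase subunit that binds chromatin in G1 (chromosome 1, 52372829 to 52404459, GRCh38), was at 19.1 and 17.9 CPM in untreated and 49.0 and 45.9 CPM in treated libraries, a rise of 1.35 ± 0.12 on the log2 scale (SE; edgeR adjusted p = 2.15e-06). ORC6, the smallest subunit, went from 18.9 and 20.3 CPM to 48.3 and 50.7 CPM (1.34 ± 0.12, edgeR adjusted p = 2.05e-06). In both genes the treated libraries lay far above the untreated pair. ORC5, another ATPase subunit, went from 50.5 and 57.7 CPM to 70.8 and 75.4 CPM (0.44 ± 0.10, edgeR adjusted p = 0.00528), again without overlap. Its call ended when untreated replicate 1 was left out (adjusted p = 0.186) and with limma on log2(TPM + 1) values (0.111) and transformed values (0.0545).

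The remaining core subunits did not pass the test. ORC2 was at 71.7 and 71.3 CPM in untreated and 69.0 and 76.1 CPM in treated libraries (0.024 ± 0.097, edgeR adjusted p = 0.871), so the groups overlapped. ORC3 (0.18) and ORC4 (0.10) had edgeR adjusted p of 0.136 and 0.517. Per length, ORC1 was the lowest subunit in every library, at 8.76 and 7.94 TPM (transcript abundance scaled for length and depth) in untreated and 21.7 and 19.4 TPM in treated cells. ORC3 was the highest, at 64.9 and 65.8 TPM and then 69.7 and 68.1 TPM. The highest subunit stood 7.40- and 8.29-fold above the lowest in untreated and 3.21- and 3.51-fold in treated libraries. Ratios between subunits are given as descriptions, and no test of them was run.

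All 3 licensing factors rose (median 1.18). CDC6, the ATPase that joins ORC to recruit the helicase (chromosome 17, 40287633 to 40304657), had the highest fitted value of the 55 genes. It went from 34.5 and 30.3 CPM to 108 and 109 CPM, 3.35-fold higher (1.74 ± 0.10, edgeR adjusted p = 6.30e-08), and its treated libraries were nearly equal. The helicase loader CDT1 (chromosome 16, 88803213 to 88809258) went from 14.2 and 13.1 CPM to 30.2 and 23.0 CPM (0.95 ± 0.16, edgeR adjusted p = 0.000462). The treated libraries of CDT1 differed from each other, though the lower of them was still above both controls. Geminin, the CDT1 inhibitor (GMNN, chromosome 6, 24774931 to 24786099), went from 38.9 and 43.0 CPM to 90.4 and 94.5 CPM (1.18 ± 0.10, edgeR adjusted p = 1.89e-06). Loader and inhibitor both rose, and the ratio of CDT1 to GMNN in TPM was 0.125 and 0.0975 in untreated and 0.116 and 0.0799 in treated libraries, so the groups overlapped.

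Of the 6 subunits of the MCM2-7 helicase, which form a ring with a copy of each, 4 rose (median 0.44). MCM4 went from 111 and 118 CPM to 226 and 222 CPM (0.97 ± 0.091, edgeR adjusted p = 4.02e-06). MCM3 (chromosome 6, 52264009 to 52284881) went from 121 and 113 CPM to 202 and 200.3 CPM (0.78 ± 0.091, edgeR adjusted p = 2.98e-05). In both genes the treated libraries lay close together and well above the controls. MCM2 went from 59.6 and 57.4 CPM to 94.1 and 72.4 CPM (0.50 ± 0.12, edgeR adjusted p = 0.00527), a call that ended on the authors' transformed values (adjusted p = 0.0777, limma). MCM7 went from 273 and 268 CPM to 392 and 310.2 CPM (0.37 ± 0.11, edgeR adjusted p = 0.0157). For both of these genes, 2-D08 replicate 2 was the lower treated library, and neither overlapped with the controls. The call of MCM7 ended when either untreated library was left out (adjusted p of 0.122 and 0.137) and with limma on log2(TPM + 1) values (0.289) and transformed values (0.110). For MCM2, 23.6% of exonic bases are shared with an antisense gene, and whether strand was used in counting is unknown.

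MCM6 and MCM5 did not pass the test. MCM6 (chromosome 2, 135839626 to 135876426), whose promoter is printed above, was at 92.2 and 99.7 CPM in untreated and 98.1 and 93.2 CPM in treated libraries (-0.0032 ± 0.093, edgeR adjusted p = 0.982). MCM5 was at 55.6 and 52.7 CPM in untreated cells, and the treated libraries fell on either side, at 68.5 and 45.2 CPM (0.055 ± 0.15, edgeR adjusted p = 0.806). With a treated library left out, MCM5 was called in opposite directions, at -0.27 without replicate 1 (adjusted p = 0.0330) and at 0.33 without replicate 2 (adjusted p = 0.00784). Per length, MCM7 was the highest subunit in every library (174 to 238 TPM). The lowest was MCM2 in untreated cells (26.0 and 23.1 TPM), MCM6 in 2-D08 replicate 1 (36.3 TPM) and MCM5 in 2-D08 replicate 2 (29.7 TPM).

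**Figure D3:**
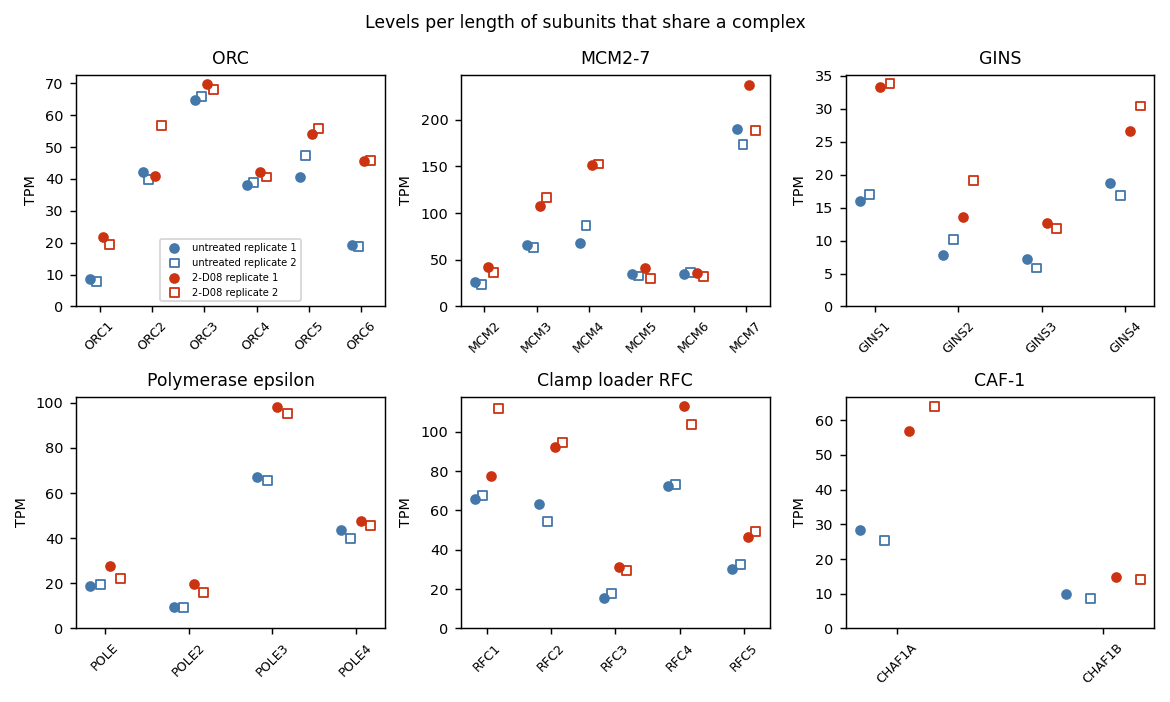
Level per length (TPM, linear axis from 0) of subunits that share a complex, for ORC, MCM2-7, GINS, polymerase epsilon, the RFC clamp loader and CAF-1; blue marks are untreated and red marks 2-D08 libraries, filled circles replicate 1 and open squares replicate 2. The red and blue marks of ORC1 and ORC6 are apart while those of ORC2 overlap, and MCM6 stays at 32.4 to 36.6 TPM.

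All 8 listed helicase activation genes rose (median 0.91). MCM10, which helps turn the loaded ring into a working helicase (chromosome 10, 13161554 to 13211104), went from 26.6 and 26.0 CPM to 72.9 and 79.1 CPM, 2.89-fold higher (1.53 ± 0.11, edgeR adjusted p = 3.26e-07). CDC45, a subunit of the active helicase, went from 19.9 and 18.5 CPM to 38.6 and 34.8 CPM (0.93 ± 0.12, edgeR adjusted p = 8.96e-05). Of the GINS genes, whose products join CDC45 in the helicase, GINS1 went from 36.3 and 38.3 CPM to 78.0 and 79.5 CPM (1.08 ± 0.10, edgeR adjusted p = 3.85e-06). None of these genes overlapped between groups. The other GINS genes rose by 0.92 (GINS3), 0.89 (GINS2) and 0.65 (GINS4) on the log2 scale. GINS2 missed the threshold on log2(TPM + 1) values (limma adjusted p = 0.0528), and 23.6% of the exonic bases of GINS4 are shared with an antisense gene. Summed per length, GINS was at 49.9 and 49.8 TPM in untreated and 86.2 and 95.3 TPM in treated libraries.

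Both genes of the origin-firing kinase rose. CDC7, the catalytic subunit, went from 35.5 and 39.7 CPM to 55.9 and 66.2 CPM (0.71 ± 0.12, edgeR adjusted p = 0.000436). DBF4, its activating subunit, went from 117 and 131 CPM to 148 and 175 CPM (0.38 ± 0.10, edgeR adjusted p = 0.0118). In DBF4 the upper control and the lower treated library were close, and the call ended without untreated replicate 1 (adjusted p = 0.254) and with limma on log2(TPM + 1) values (0.0638) and transformed values (0.103). DBF4 stood above CDC7 per length, by 5.68- and 5.47-fold in untreated and 4.55- and 4.39-fold in treated libraries.

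Of the 4 genes of polymerase alpha-primase, which lays down the RNA-DNA primer, 3 rose (median 0.62). POLA2, the accessory subunit, went from 15.8 and 12.0 CPM to 31.6 and 26.4 CPM (1.04 ± 0.16, edgeR adjusted p = 0.000242). PRIM2, the large primase subunit, went from 68.4 and 67.3 CPM to 105 and 105 CPM (0.63 ± 0.091, edgeR adjusted p = 0.000178). PRIM1, the catalytic primase subunit, went from 46.9 and 49.2 CPM to 67.1 and 78.5 CPM (0.61 ± 0.11, edgeR adjusted p = 0.000747). The groups of these 3 genes did not overlap. Per length the primase genes stayed within 1.02- to 1.12-fold of each other in every library. POLA1, the catalytic polymerase subunit (chromosome X, 24693919 to 24996986), did not pass, and its groups overlapped at 61.3 and 67.0 CPM against 66.1 and 77.5 CPM (0.17 ± 0.11, edgeR adjusted p = 0.238). It was called higher without 2-D08 replicate 1 (0.27, adjusted p = 0.0136). Exonic bases shared with another gene model make up 35.1% for POLA2 and 21.6% for PRIM1, so their own share of reads is uncertain.

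Of the 7 listed genes of polymerases epsilon and delta, 4 rose (median 0.44). In polymerase epsilon, POLE2, the second subunit, went from 8.29 and 8.48 CPM to 17.1 and 15.3 CPM (0.95 ± 0.16, edgeR adjusted p = 0.000625). The histone-fold subunit POLE3 went from 96.0 and 97.3 CPM to 143 and 148 CPM (0.59 ± 0.089, edgeR adjusted p = 0.000220). The treated libraries of both were clear of the controls. POLE, the catalytic subunit (chromosome 12, 132623753 to 132687365), went from 63.6 and 57.0 CPM to 85.8 and 78.3 CPM (0.44 ± 0.10, edgeR adjusted p = 0.00470), a call that ended without untreated replicate 2 (adjusted p = 0.130) and on log2(TPM + 1) values (0.147, limma). POLE4, the histone-fold partner of POLE3, was at 15.1 and 14.0 CPM in untreated and 17.9 and 15.2 CPM in treated libraries and did not pass (0.17 ± 0.15, edgeR adjusted p = 0.413).

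Of the polymerase delta genes among the 55, POLD3 passed and the other 2 did not. This accessory subunit went from 35.5 and 39.7 CPM to 56.5 and 60.2 CPM (0.64 ± 0.11, edgeR adjusted p = 0.000560). The catalytic subunit gene POLD1 (chromosome 19, 50384204 to 50418016) was at 23.0 and 22.3 CPM in untreated and 26.0 and 19.2 CPM in treated libraries (-0.022 ± 0.15, edgeR adjusted p = 0.924), with 1 treated library on each side of the controls. POLD2, an accessory subunit, was at 119.6 and 111 CPM in untreated and 111 and 92.8 CPM in treated libraries (-0.18 ± 0.10, edgeR adjusted p = 0.187), the lowest fitted value of the 55 genes. Its groups just overlapped, and it was called lower without 2-D08 replicate 1 (-0.32, adjusted p = 0.00123). Per length, POLD2 stood 13.2- and 10.6-fold above POLD1 in untreated and 8.31- and 7.84-fold in treated libraries. POLD4, a polymerase delta gene outside the 55, was at 13.9 and 13.4 CPM in untreated and 11.1 and 9.76 CPM in treated libraries. It did not pass (-0.40 ± 0.16, edgeR adjusted p = 0.0761), although both treated values were below both controls.

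The sliding clamp and all 5 genes of its loader rose (median 0.67). PCNA, the ring that tethers polymerases and is itself a known SUMO substrate (chromosome 20, 5114953 to 5126626), went from 145 and 149.9 CPM to 272 and 282 CPM (0.91 ± 0.090, edgeR adjusted p = 6.10e-06). It has 3 named pseudogenes, so its own share of reads is uncertain. DBF4, POLD2, RFC3, RFC5 and FEN1 have 1 named pseudogene each, with the same limit. RFC3 went from 23.5 and 28.5 CPM to 49.2 and 49.7 CPM (0.93 ± 0.12, edgeR adjusted p = 7.15e-05). The other small loader subunits rose by 0.70 (RFC5), 0.64 (RFC2) and 0.63 (RFC4), with no overlap between groups. RFC1, the large subunit, went from 136 and 145 CPM to 165 and 202 CPM (0.39 ± 0.11, edgeR adjusted p = 0.0113). Its call ended when either untreated library was left out (adjusted p of 0.188 and 0.0609) and with limma on log2(TPM + 1) values (0.111) and transformed values (0.105).

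Of the 3 genes of RPA, which coats single-stranded DNA, 2 rose (median 0.31). RPA2, the subunit phosphorylated under replication stress, went from 56.3 and 53.3 CPM to 93.3 and 90.6 CPM (0.74 ± 0.096, edgeR adjusted p = 6.54e-05), and it has 3 named pseudogenes. RPA3, the smallest subunit, went from 62.2 and 65.2 CPM to 82.6 and 75.1 CPM (0.31 ± 0.098, edgeR adjusted p = 0.0275). The call of RPA3 ended with DESeq2 (adjusted p = 0.0504), with limma on log2(TPM + 1) values (0.179) and transformed values (0.0756), and without either untreated library (0.314 and 0.163). RPA1, the main DNA-binding subunit, was at 117 and 116 CPM in untreated and 145 and 122 CPM in treated libraries and did not pass (0.19 ± 0.10, edgeR adjusted p = 0.151). It was called higher without 2-D08 replicate 2 (0.31, adjusted p = 0.00142).

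Of 4 genes that process Okazaki fragments, the short pieces of the lagging strand, 2 rose (median 0.43). The flap endonuclease gene FEN1 (chromosome 11, 61792637 to 61797244) went from 35.6 and 33.1 CPM to 74.4 and 69.2 CPM (1.06 ± 0.11, edgeR adjusted p = 6.77e-06). DNA2, a nuclease and helicase that cuts long flaps, went from 25.6 and 24.7 CPM to 32.1 and 40.9 CPM (0.54 ± 0.13, edgeR adjusted p = 0.00625). On the TPM scale DNA2 was at 10.7 and 12.2 TPM against 11.1 and 13.1 TPM, so the groups overlapped and the call ended (log2 fold change 0.070 on log2(TPM + 1), limma adjusted p = 0.778). It also ended on the transformed values (limma adjusted p = 0.0809). LIG1, the ligase that seals the nicks (chromosome 19, 48115445 to 48170603), was at 32.8 and 27.5 CPM in untreated and 27.2 and 27.9 CPM in treated libraries (-0.14 ± 0.13, edgeR adjusted p = 0.433), with overlap. RNASEH2A, the catalytic subunit of an enzyme that removes RNA from DNA, was at 31.2 and 26.5 CPM in untreated and 37.2 and 35.2 CPM in treated libraries and did not pass (0.32 ± 0.12, edgeR adjusted p = 0.0577). It was called higher without 2-D08 replicate 2 (adjusted p = 0.0207) and with even counts halved (0.0498). Both of its treated libraries lay above both controls, and 30.8% of its exonic bases are shared with another gene model.

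All 4 listed genes of chromatin assembly and histone RNA processing rose (median 0.86). CHAF1A, the large subunit of CAF-1, which places new H3-H4 histones behind the fork (chromosome 19, 4402662 to 4445018), went from 46.6 and 45.4 CPM to 100.1 and 103 CPM (1.14 ± 0.095, edgeR adjusted p = 1.43e-06). CHAF1B, the middle subunit, went from 27.5 and 25.3 CPM to 44.2 and 46.0 CPM (0.77 ± 0.11, edgeR adjusted p = 0.000194). Both stood clear of the controls in each treated library. ASF1B, the chaperone that hands H3-H4 to CAF-1, went from 32.9 and 29.5 CPM to 63.3 and 49.0 CPM (0.83 ± 0.13, edgeR adjusted p = 0.000304). SLBP, which binds the stem-loop of histone RNA and allows its processing and translation, went from 54.6 and 57.3 CPM to 105 and 102 CPM (0.89 ± 0.094, edgeR adjusted p = 1.16e-05). In TPM, CHAF1A stood 2.90- and 2.93-fold above CHAF1B in untreated and 3.81- and 4.51-fold in treated libraries.

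The histone genes whose RNA SLBP binds are expressed in S phase. Their RNA mostly lacks a poly(A) tail, and these libraries were made from total RNA after removal of ribosomal RNA. Whether the RNA counted for these genes had such a tail was not tested. Of 67 such genes in the table, 32 could be tested, of which 10 rose and 2 fell (median 0.81). Over all genes tested, 17.1% were called higher and 16.9% lower. The summed level of all 67 went from 128 and 122 CPM to 159 and 148 CPM. Many were near the floor: among those that rose, H2BC8, H2BC11, H2BC9, H3C8, H1-3 and H2BC7 reached at most 3.65 CPM in any library. The median therefore rests in part on low counts. H2AC6, the gene with the highest mean, was at 30.9 and 30.8 CPM in untreated and 32.7 and 34.3 CPM in treated libraries (0.12 ± 0.11, edgeR adjusted p = 0.444). The linker histone gene H1-2 fell from 23.9 and 22.3 CPM to 17.8 and 15.8 CPM (-0.47 ± 0.14, edgeR adjusted p = 0.0176), a call that ended without either untreated library (adjusted p of 0.238 and 0.0698) and on the transformed values (0.0536, limma). H2BC12 (-0.027) did not pass, and H2AC11 rose by 0.72, a call that ended without untreated replicate 1 (adjusted p = 0.108) and on both TPM scales (0.0554 and 0.0557, limma). These genes are close copies in their coding sequence, so single values are uncertain where reads could be split.

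Among fork protection and coupling genes 3 of 4 rose (median 0.92). CLSPN encodes claspin, the adaptor that relays the ATR checkpoint signal to CHK1 (chromosome 1, 35720218 to 35769967). It went from 62.2 and 66.2 CPM to 182 and 199.7 CPM, 2.98-fold higher (1.57 ± 0.096, edgeR adjusted p = 8.51e-08). TIPIN and TIMELESS form a complex that travels with the fork. TIPIN went from 15.4 and 14.3 CPM to 28.1 and 32.3 CPM (1.03 ± 0.14, edgeR adjusted p = 7.94e-05), without overlap. TIMELESS was at 86.1 and 81.8 CPM in untreated and 95.3 and 91.2 CPM in treated libraries and did not pass (0.15 ± 0.092, edgeR adjusted p = 0.227), although both treated values were above both controls. Of the exonic bases of TIPIN, 21.0% are shared with another gene model, mainly a ribosomal protein pseudogene. WDHD1, which links the helicase to polymerase alpha, went from 56.9 and 66.4 CPM to 102 and 115 CPM (0.82 ± 0.11, edgeR adjusted p = 6.77e-05).

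**Figure D4:**
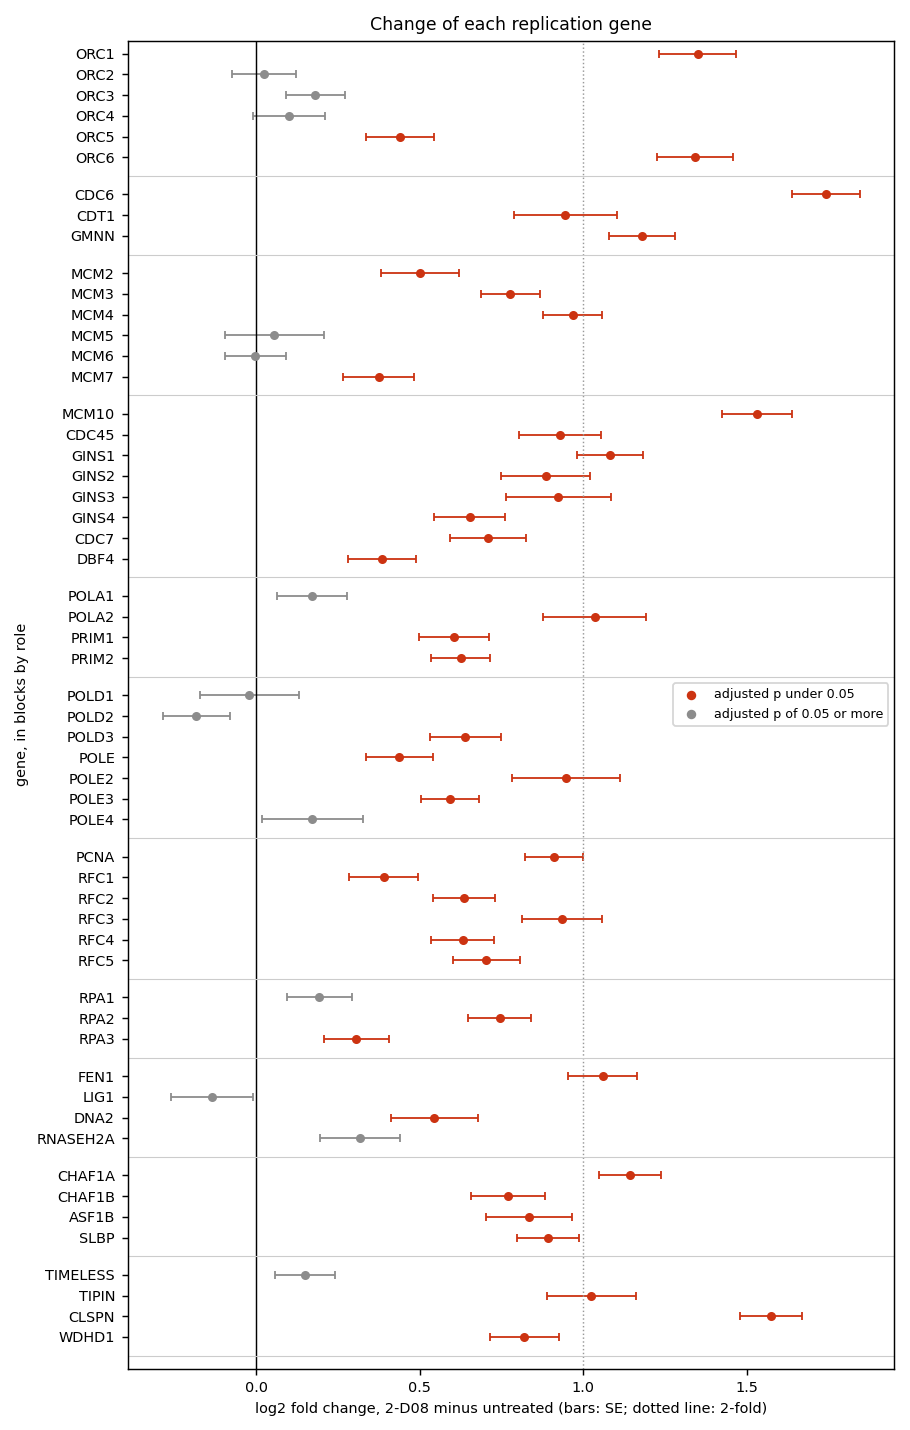
Log2 fold change of 2-D08 against untreated for the 55 genes, in blocks by role; bars are SE, red points passed adjusted p under 0.05 and grey points did not, and the dotted line marks 2-fold. CDC6 lies farthest to the right at 1.74 and POLD2 farthest to the left at -0.18.

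The 13 genes that did not pass were ORC2, ORC3, ORC4, MCM5, MCM6, POLA1, POLD1, POLD2, POLE4, RPA1, LIG1, RNASEH2A and TIMELESS. All members rose in 4 of the 11 roles: licensing factors, helicase activation, clamp and clamp loader, and chromatin assembly. Differences between roles were not tested.

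Of 32 further replication genes listed apart from the 55, 15 rose and 1 fell, with a median of 0.30. Over all genes tested, 17.1% were called higher and 16.9% lower. Both treated libraries lay above both untreated ones in 19 of the 32 and below them in 7. Over all genes these shares were 33.8% and 33.7%. DTL, the substrate receptor that directs CDT1 to degradation in S phase, went from 25.1 and 25.4 CPM to 74.5 and 80.1 CPM (1.62 ± 0.11, edgeR adjusted p = 2.08e-07). ATAD5, which unloads PCNA, rose by 1.24 and UHRF1, which maintains DNA methylation behind the fork, by 0.93. MCM8 (0.92), DONSON (0.82) and MMS22L (0.79) rose as well. MCM9, the partner of MCM8 in recombination, was the gene called lower, from 25.8 and 25.4 CPM to 19.4 and 19.6 CPM (-0.39 ± 0.13, edgeR adjusted p = 0.0281). Its call ended without either untreated library (adjusted p of 0.255 and 0.163), with DESeq2 (0.0745) and with limma on log2(TPM + 1) values (0.144) and transformed values (0.0511). Among G2/M genes, CDK1 rose by 1.11, HMMR by 0.74, BIRC5 by 0.56 and AURKA by 0.49; HMMR missed the threshold with limma on log2(TPM + 1) values (adjusted p = 0.0523) and transformed values (0.0527), and AURKA on log2(TPM + 0.1) values (0.0503) and without untreated replicate 1 (0.0717).

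GC content moved with the difference between libraries of a group. For the 55 genes, the log2 difference of 2-D08 replicate 2 from replicate 1 had Pearson's r of -0.783 (Spearman's rho -0.758) with the GC content of the longest annotated transcript. The same difference in the untreated pair had r of -0.594 (rho -0.671). Over 12509 tested genes r was -0.475 and -0.223. These are descriptions across genes of shared libraries, which are not independent replicates. MCM5, at 57.0% GC, was lower in 2-D08 replicate 2 (-0.60 on the log2 scale), and so was POLD1, at 65.0% GC (-0.44). DNA2, at 37.6% GC, was higher there by 0.35. The log2 fold change itself had r of -0.119 with GC over the 55 genes. With a GC trend removed from each library, a setting added after the data had been seen, 44 members rose and 0 fell, RNASEH2A and TIMELESS being added (adjusted p of 0.00661 and 0.0385). The number of all genes called grew as well under that setting, from 4376 to 6068 of 12906. MCM5 (0.13) and POLD1 (0.15) still did not pass.

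**Figure D5:**
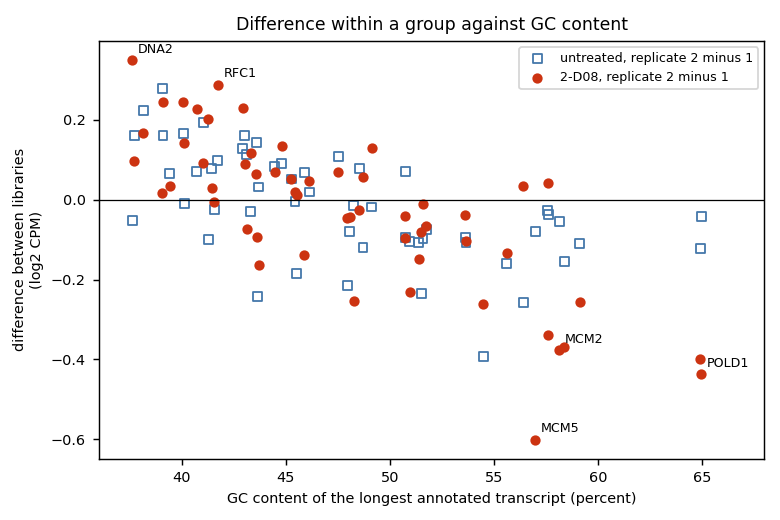
Difference between the libraries of a group (log2 CPM, replicate 2 minus replicate 1) against GC content of the longest annotated transcript (percent) for the 55 genes; red circles are the 2-D08 pair and open blue squares the untreated pair. The highest red point is DNA2 (0.35, at 37.6% GC) and the lowest MCM5 (-0.60, at 57.0% GC).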

How the data were processed

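RNA from 4 SK-LMS-1 libraries, 2 untreated and 2 given 2-D08, was compared. STAR (2.7.8a), cutadapt (3.4), DESeq2 and the build GRCh38 are listed without role or order, per the submitters' processing notes. How reads were assigned to genes, with which annotation and strand setting, is unknown. The authors deposited whole-number read counts, TPM values (summing to 716934 to 761770 over the genes kept) and a table named for normalised counts, whose deposited values look like log2 transformed values. Tests ran on the counts with edgeR 4.0.16 in R 4.3.3 (filterByExpr with minimum count 10, TMM factors, robust quasi-likelihood test, two-sided, Benjamini-Hochberg over all 12906 genes tested). SE was derived from the F statistic. Gene positions, exon overlaps and GC content came from GENCODE 29 (GRCh38), where all 55 symbols matched. Replicates differed by more than sampling noise (chi-square per degree of freedom 4.63 for the untreated and 13.9 for the treated pair).

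Alternatives were other scalings and filters, DESeq2 1.42.0, limma 3.58.1 (voom, TPM with a mean of at least 0.5 and transformed values), a replicate block, thinned counts, even counts halved, a GC trend removed and each library left out. The 55 members, the further lists and the alternatives were chosen with earlier results of these data known. Given in full were, per role, the members with the smallest and the largest p, and the 10 members with the smallest p; of other lists, up to 6 replication genes by p and any lower, 4 G2/M genes by p and 4 histone genes by mean. Other members are named to account for all, and POLD4 is named beside polymerase delta. An immune marker of the list is not reported here. Data were simulated from these means and library sizes (200 of 12778 genes changed), with the same dispersion (0.00727) for every gene and library. There, 67.2% of 1.5-fold, 88.1% of 2-fold and 100% of 4-fold changes were recovered, and 4% of 177 calls were false. The simulation had no GC trend, no noisier treated pair and far fewer changed genes than were called here. Its rates may therefore not hold for these data.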

Additional observations from a re-analysis of the deposited data

How the results depend on the processing

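Across 17 other settings, 33 of the 42 members that rose stayed past the threshold in every one, and 0 of them changed sign. The other 9 (ORC5, MCM2, MCM7, GINS2, DBF4, POLE, RFC1, RPA3 and DNA2) lost their call in at least 1 setting. Members called higher numbered 42 with RLE factors, with library size only, unfiltered, above 5 CPM on average, with limma-voom and with thinned counts. They numbered 41 with DESeq2, 43 with even counts halved, 44 with the GC trend removed, 35 on the transformed values and 34 on both TPM scales. Without 1 library, 37 to 45 members were called higher and 0 to 2 members called lower (MCM5 and POLD2 without 2-D08 replicate 1); a lone library is there assumed to vary like the other group. Of all genes called, 4376 in the main test, the number was 1767 with log2(TPM + 1), 1726 with log2(TPM + 0.1), 2464 on the transformed values and 1866 to 6077 without 1 library, with 1866 and 2695 without untreated replicate 1 and 2; the cause was not tested. Other replication genes called higher ran from 10 to 19.

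No label says that equal replicate numbers mark a shared source. The deviations from the group means had r = 0.258 between libraries of the same number, over 12906 genes. A replicate block gave 6239 of all genes called, 45 members called higher (ORC3, RPA1 and RNASEH2A added) and 1 of the members called lower (POLD2).

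Genes short of the threshold that changed sign were MCM6 (0.0018 with library size only, 0.019 with thinned counts), MCM5 (-0.0095 with limma-voom), POLD1 (0.27 and 0.29 on the TPM scales, 0.15 with the GC trend removed), LIG1 (0.11 and 0.12 on the TPM scales), ORC2 (-0.044 with the GC trend removed) and H2BC12 (0.072 with thinned counts, 0.0065 with even counts halved). Without 1 library the values ran from -0.056 to 0.087 for ORC2, -0.27 to 0.33 for MCM5, -0.059 to 0.050 for MCM6, -0.25 to 0.19 for POLD1, -0.26 to 0.0050 for LIG1 and -0.38 to 0.29 for H2BC12.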
